A study of Mus musculus with 7 samples.

Results

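The 8 genes described here encode parts of the complement system: the C1q chains C1qa, C1qb and C1qc, the central component C3, the receptors C3ar1 and C5ar1, and the alternative pathway proteins Cfp and Cfb. They were taken by name, but the list of names was chosen with earlier results of these data known. The array's probes were named through the RefSeq accession that each carries, and 9 probes matched, of 55681 on the array and 20018 genes with a named probe. C3 had 2 probes and every other gene had 1. A probe entered the test where it was well above background on at least 3 of the 7 arrays, which 7 of the 9 probes were; the probes of C1qa and C5ar1 were not.

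Complement is a cascade of blood proteins that marks microbes and dying cells. C1q, built from A, B and C chains that must assemble together, opens the classical pathway when it binds antibody or other targets, and in the body it is made largely by macrophages and some dendritic cells rather than by the liver. C3 is the point where all pathways meet. Properdin (Cfp) and factor B (Cfb) build and hold the convertase of the alternative pathway, and C3ar1 and C5ar1 sense the small peptides released as C3 and C5 are cut.

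Gene expression was measured on 7 one-colour Agilent arrays, whose RNA came from dendritic cells that mouse common myeloid progenitors gave in culture, with 3 arrays labelled knockout and 4 labelled control. All donors were of the C57BL/6 background with both Gata2 alleles floxed (Gata2(f/f)). Donors of the knockout group carried ER-Cre in addition, a recombinase activated by tamoxifen, and control donors had none. The sources used here name neither the promoter that drives it nor the age of the mice. Both groups received tamoxifen between day 1 and day 10, progenitors were sorted on days 20 to 22, and they were cultured on marrow feeder cells of SJL mice with FLT3 ligand at 200 ng/ml. The sources used here do not say how dendritic cells were parted from feeder cells or whether replicates are separate animals, so p-values cover the spread between these arrays, which may be technical.

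A level below is log2 of the processed signal minus the 75th percentile of its array, so that 0 is a bright probe. A difference is the knockout mean minus the control mean of such levels. The share of all probes whose groups do not overlap was not counted, so whether a lack of overlap is unusual cannot be read here. The share of probes well above background was 60.8% to 66.9% in the knockout group and 53.3% to 56.2% in the controls, and the dimmest such probe lay between -7.13 and -6.21 on the former and between -5.59 and -5.32 on the latter. Values below these marks have no order. The Gata2 probe read 2.93, 3.00 and 3.06 on the arrays labelled knockout and -0.25, 0.24, 0.36 and 0.34 on the controls, a difference of 2.82 (SE 0.18, limma adjusted p = 0.000415). It was higher where the label says knockout, and the sources used here do not say whether this probe lies in the deleted part, so every direction below is that of the arrays as labelled. The groups occupied separate rows of 1 slide, and row, Cre and group cannot be told apart.

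Dendritic markers were compared between the groups first, a comparison that cannot show what the cells are. Mean levels of those tested ran from 6.20 (H2-Ab1) down to -3.01 (Zbtb46), and Xcr1 was too dim to test. Of 15 dendritic markers 14 were tested and none passed in limma (0 lower and 0 higher at an unadjusted p below 0.05), with a median difference of -0.05 and a range from -0.34 to 0.35. Over all probes tested, the median difference was -0.03.

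The results turn on the C1q cluster and C3, so the 250 bases before the annotated start of C1qb, C1qc and C3 are shown, the promoter windows of the genes whose values are compared most closely. Of the 8 genes, 6 had such a window in the RefSeq table of build GRCm38.p6. C1qb, C1qc and C1qa are neighbours on chromosome 4 in that table. The windows lie on the minus strand at chr4:136886201-136886450, chr4:136892915-136893164 and chr17:57228137-57228386. Capitals mark matches, on either strand, to TGCTGA (the core of the site bound by Maf factors), GAGGAA (the core read by PU.1, a factor of myeloid cells) or GATAA (the core read by GATA factors).
C1qb: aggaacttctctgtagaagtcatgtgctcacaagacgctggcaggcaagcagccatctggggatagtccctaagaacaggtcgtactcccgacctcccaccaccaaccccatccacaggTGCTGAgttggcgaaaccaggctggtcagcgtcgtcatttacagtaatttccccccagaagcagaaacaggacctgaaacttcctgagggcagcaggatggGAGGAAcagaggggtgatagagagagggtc
C1qc: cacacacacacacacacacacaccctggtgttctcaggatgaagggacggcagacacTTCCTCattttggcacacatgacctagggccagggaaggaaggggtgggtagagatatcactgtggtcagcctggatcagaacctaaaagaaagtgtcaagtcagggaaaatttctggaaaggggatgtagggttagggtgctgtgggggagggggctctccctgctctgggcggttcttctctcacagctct
C3: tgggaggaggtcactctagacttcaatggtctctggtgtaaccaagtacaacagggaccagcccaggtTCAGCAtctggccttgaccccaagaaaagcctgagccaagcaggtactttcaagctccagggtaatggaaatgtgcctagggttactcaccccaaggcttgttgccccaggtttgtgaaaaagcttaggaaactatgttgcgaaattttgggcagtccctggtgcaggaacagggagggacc
The C1qb window held 1 match to TGCTGA, 131 bases before the start, and 1 to GAGGAA, at 30 bases. That of C1qc held 1 to GAGGAA, at 193 bases on the opposite strand, and that of C3 held 1 to TGCTGA, at 182 bases on the opposite strand. None of these windows held GATAA, which was found 2 times in the window of C3ar1. The windows of C3ar1 and C5ar1 also held 1 match each to TGCTGA. Among all 32851 windows of this length in the table, 16.1% held TGCTGA, 23.3% GAGGAA and 22.6% GATAA, so each is a common word. The Cfp window held none of the 3.

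**Figure D1:**
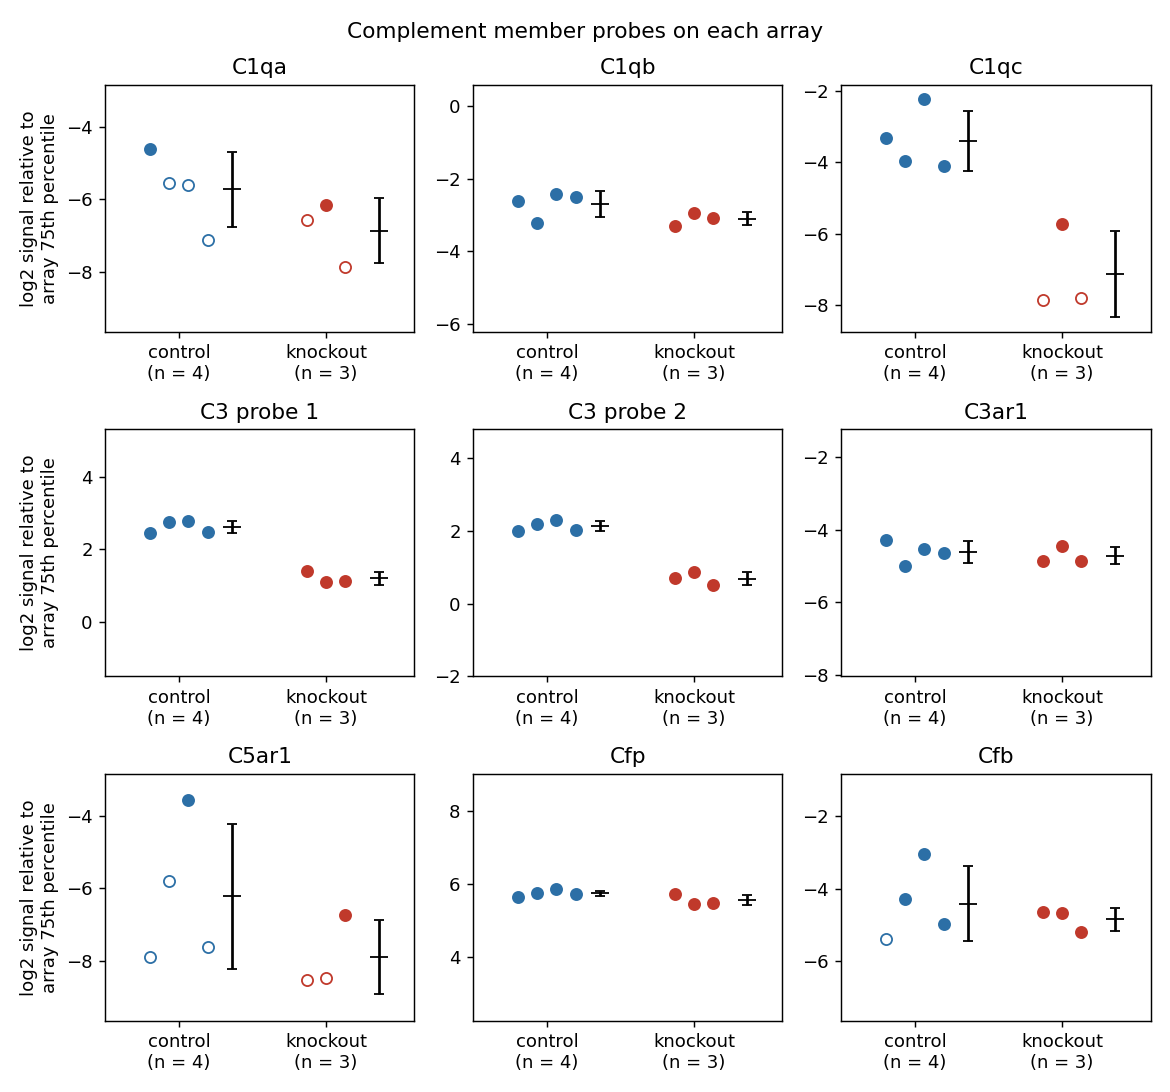
Level of each complement probe on each array, as log2 signal relative to the 75th percentile of the array, with filled points well above background and hollow points not. Bars give mean ± SD of 4 control and 3 knockout arrays. C3 and C1qc are the panels where the groups do not overlap, though the share of all probes without overlap was not counted. The C1qa and C5ar1 panels are mostly hollow.

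Among the members, C3 fell in the arrays labelled knockout. C1qc was also called lower, but it entered the test through the controls, since 1 of the 3 knockout arrays measured it above background, and the call was lost with a common floor. C1qb, C3ar1, Cfp and Cfb did not pass the test. Of the 7 tested probes, 3 were lower and none higher. Over all 34099 probes tested, 178 (0.522%) were lower and 287 (0.842%) higher at an adjusted p below 0.05. The 3 calls belong to 2 genes, since both C3 probes carry an accession of that gene.

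The first C3 probe, printed 10 times on each array, read 1.41, 1.09 and 1.11 on the arrays labelled knockout and 2.45, 2.74, 2.78 and 2.47 on the controls. The other C3 probe read 0.71, 0.86 and 0.50 against 2.01, 2.19, 2.30 and 2.04. On both probes every array labelled knockout lay below every control, by more than the spread within either group. The fall was 2.65-fold on the first probe (difference -1.41, SE 0.16, limma adjusted p = 0.0050). It was 2.72-fold on the other (difference -1.44, SE 0.15, limma adjusted p = 0.00329). The distance between the probes within an array did not differ between groups beyond the spread (0.51 ± 0.25, SD, n = 3, in the knockout group, 0.48 ± 0.05, SD, n = 4, in the controls, exact two-sided permutation test p = 0.8). Both calls were kept without any single array, with adjusted p of at most 0.0411 for the first probe and 0.0265 for the other.

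C3 splits after activation into a fragment that coats targets and one that signals through C3ar1. The C3ar1 probe was well above background on all 7 arrays, at -4.85, -4.43 and -4.85 in the knockout group and -4.27, -4.99, -4.52 and -4.64 in the controls. These values overlapped, and the difference of -0.11 had a 95% interval from -0.58 to 0.37 (limma adjusted p = 0.891). That interval does not reach the difference measured for C3. C3ar1 was far dimmer than C3, however, and lay little above the controls' dimmest measured signals (-5.59 to -5.32).

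Of the C1q chains, C1qc was called lower, C1qb did not pass and C1qa could not be tested. C1qc read -7.86, -5.74 and -7.80 on the arrays labelled knockout and -3.33, -3.97, -2.24 and -4.10 on the controls. It was well above background on every control and on replicate 2 alone of the knockout group, and the groups did not overlap. The difference was -3.72 (SE 0.63, limma adjusted p = 0.035). Replicates 1 and 3 of the knockout group lie under the dimmest measured signal, so the size depends on where unmeasured values are put. With each array's own dimmest signal as a floor the fall was 7.34-fold, and with the highest of those signals, -5.32, as a common floor it was 3.76-fold and the call was lost (difference -1.91, limma adjusted p = 0.181). With normexp background correction the difference was -1.92 and the call was kept (adjusted p = 0.023). The call was also lost without knockout replicate 1 or 3 (adjusted p = 0.158 and 0.173) and without control replicate 1, 2, 3 or 4 (adjusted p = 0.0808, 0.0617, 0.0638 and 0.0597). It was kept without knockout replicate 2 (difference -4.42, adjusted p = 0.0157).

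The C1qc probe was also printed 10 times on each array, which shows how well each array fixed it. All 10 spots were well above background on each control and on knockout replicate 2, against 0 of 10 on replicate 1 and 1 of 10 on replicate 3 of that group, where that 1 spot was flagged as an outlier and left out of the values. Spots within a control array had an SD between 0.07 and 0.11, while the controls ranged from -4.10 to -2.24. Control replicate 3 was the highest. For the C3 probe with 10 spots the SD within an array was between 0.04 and 0.08.

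**Figure D2:**
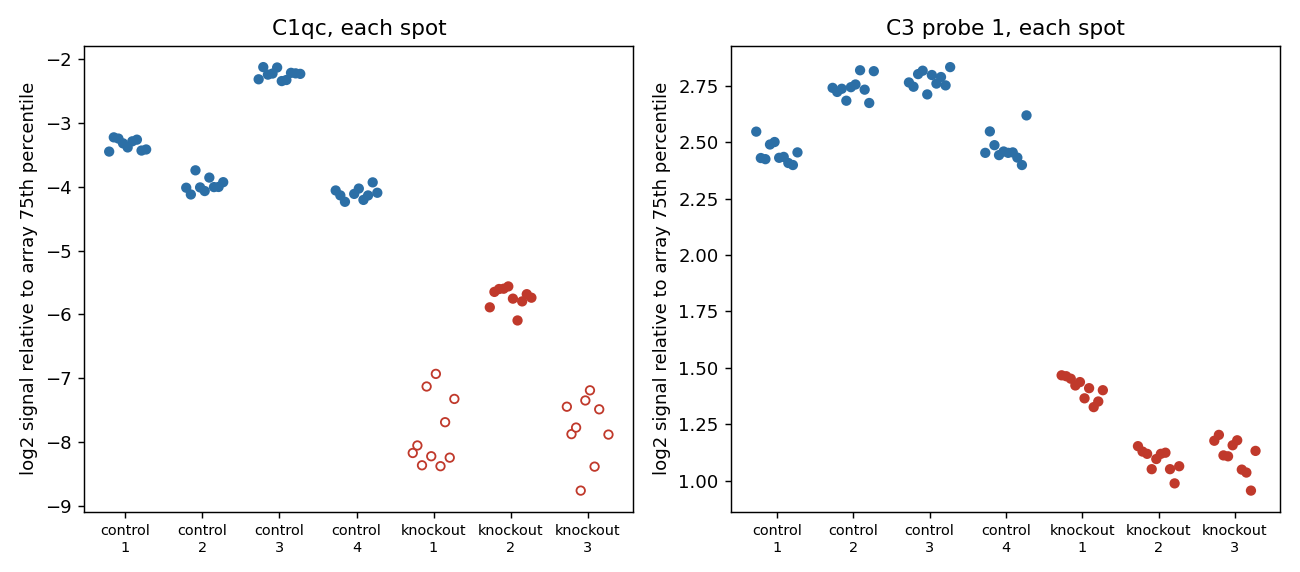
Every spot of the probes printed 10 times, for C1qc and the first C3 probe, by array, as log2 signal relative to the array's 75th percentile, with outlier spots left out and hollow points not well above background. C1qc is measured on the controls and knockout replicate 2 and is hollow on knockout replicates 1 and 3, while every C3 spot is measured on all 7 arrays.

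C1qb was well above background on all 7 arrays. It read -3.29, -2.93 and -3.08 in the knockout group and -2.62, -3.22, -2.43 and -2.49 in the controls. Control replicate 2 lay among the knockout values and the groups overlapped. The difference was -0.41 (95% interval -0.92 to 0.10, limma adjusted p = 0.573). The distance from C1qb to C1qc within an array, examined after the values were seen, was -4.03 ± 1.06 (SD, n = 3) in the knockout group and -0.72 ± 0.74 (SD, n = 4) in the controls. It rests on C1qc values under background on knockout replicates 1 and 3. With the common floor it was -2.22 ± 0.18 (SD, n = 3) against -0.72 ± 0.74 (SD, n = 4), which did not pass a two-sided exact permutation test (p = 0.05714, 0.08571 adjusted over 3 pairs), so unequal change of C1qb and C1qc was not shown.

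C1qa was well above background on 1 control and 1 array labelled knockout, so it had too few measured values for the test. It read -6.57, -6.16 and -7.88 in the knockout group and -4.62, -5.55, -5.60 and -7.13 in the controls, and the groups overlapped. The means differed by -1.14, and by -0.18 once both groups had the common floor. No change of C1qa could be read at this signal.

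Cfp, or properdin, was bright on every array. It read 5.72, 5.46 and 5.49 in the knockout group and 5.65, 5.75, 5.85 and 5.72 in the controls, which overlap. The difference was -0.18 (95% interval -0.49 to 0.12, limma adjusted p = 0.676), and its sign turned with quantile normalization (0.02). The distance from Cfp to the first C3 probe was -4.36 ± 0.03 (SD, n = 3) in the knockout group and -3.13 ± 0.11 (SD, n = 4) in the controls. Every array labelled knockout lay below every control (difference -1.22, exact permutation test over 35 splits, two-sided p = 0.02857, which no split could lower). After adjustment over the same 3 pairs this was 0.04286, or 0.08571 where the C1qc pair had the common floor, and the pair was also picked after the values were seen.

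Cfb, the protease of the alternative convertase, was dim. It read -4.64, -4.66 and -5.20 in the knockout group and -5.38, -4.27, -3.03 and -4.96 in the controls, and it was not well above background on control replicate 1. The controls spanned the knockout values, and the difference of -0.43 had a 95% interval from -1.63 to 0.78 (limma adjusted p = 0.812). Without control replicate 3 the difference was 0.03. The data therefore leave room for a change of Cfb in either direction.

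C5ar1, the receptor that draws phagocytes to C5a, was measured on control replicate 3 at -3.57 and on knockout replicate 3 at -6.73 and was not well above background on the other arrays. The other controls read -7.89, -5.79 and -7.63 and the other knockout arrays -8.53 and -8.47. The means differed by -1.69, or by -0.44 with the common floor. With the common floor, control replicate 3 alone lay above the floor among the controls.

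The wider complement pathway was read from a list of 46 genes, of which 44 had a probe and 26 were tested. None passed in either direction after adjustment by limma. At an unadjusted p below 0.05 in limma, 5 were lower and 0 higher. The share of all probes at that unadjusted threshold was not counted, so whether 5 of 26 is unusual cannot be read here. The median difference was -0.15, with 16 differences below 0 and 10 above.

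In the classical pathway, 3 genes were tested. C1ra, a protease carried by C1q, differed by -0.99 (SE 0.30, limma adjusted p = 0.252). C2, the neighbour of Cfb and its classical counterpart, differed by 0.40 (SE 0.39, limma adjusted p = 0.756). Of 9 lectin pathway genes 3 were tested, and 4 (Colec10, Colec12, Mbl1 and Mbl2) were not well above background on any array. Colec11, a collectin, differed by 0.32 (SE 0.26, limma adjusted p = 0.709). Fcnb, a ficolin of myeloid cells, read -5.95, -5.81 and -5.86 in the knockout group and -4.50, -4.29, -5.22 and -3.84 in the controls. Its groups did not overlap, but its difference of -1.41 (SE 0.30) did not pass (limma adjusted p = 0.0847). Fcnb was well above background on 2 of the 3 arrays labelled knockout and 3 of the 4 controls. With the common floor its difference was -0.86.

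Cfd, the alternative pathway protease that cuts factor B, read -6.01, -5.95 and -7.45 in the knockout group and -4.85, -4.30, -4.39 and -5.04 in the controls. These did not overlap either, with a difference of -1.82 (SE 0.39, limma adjusted p = 0.0886). Cfd was well above background on 2 of the 3 arrays labelled knockout, and with the common floor its difference was -0.68. In the terminal pathway C8g and C6 differed by -0.15 and 0.08 (limma adjusted p = 0.745 and 0.904), and no array had C8a, C8b or C9 well above background.

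Of 11 regulators 7 were tested. Cr1l, the membrane inhibitor of C3 convertases in mice, differed by -0.16 (SE 0.15, limma adjusted p = 0.745), and Clu, a chaperone that restrains the terminal complex, by -0.87 (SE 0.25, limma adjusted p = 0.230). Of 10 receptor genes 8 were tested. C1qbp and Cd93 differed by -0.15 and -0.01 (limma adjusted p = 0.808 and 0.989). Itgam, the alpha chain of the integrin that binds C3 fragments, was singled out after its values were seen. It read 2.98, 3.22 and 2.83 against 3.77, 3.58, 3.82 and 3.67, without overlap, and its difference of -0.70 did not pass (SE 0.15, limma adjusted p = 0.0832). The C5a receptor gene beside C5ar1, C5ar2, never rose well above background.

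Fcnb, Cfd and Itgam lay close to the threshold. They passed when 1 probe was kept for each gene, so that 14539 features were tested (limma adjusted p = 0.0445, 0.0467 and 0.0408), and with normexp background correction (limma adjusted p = 0.0299, 0.0101 and 0.034). Cfd also passed with each array's own floor and with array weights, Itgam with a variance trend and with array weights, and Fcnb without control replicate 3 (limma adjusted p = 0.0155). None of these genes was called with the common floor, quantile normalization, the series table values, the stricter filters or the replicate block. The same held when any other single array was left out.

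**Figure D3:**
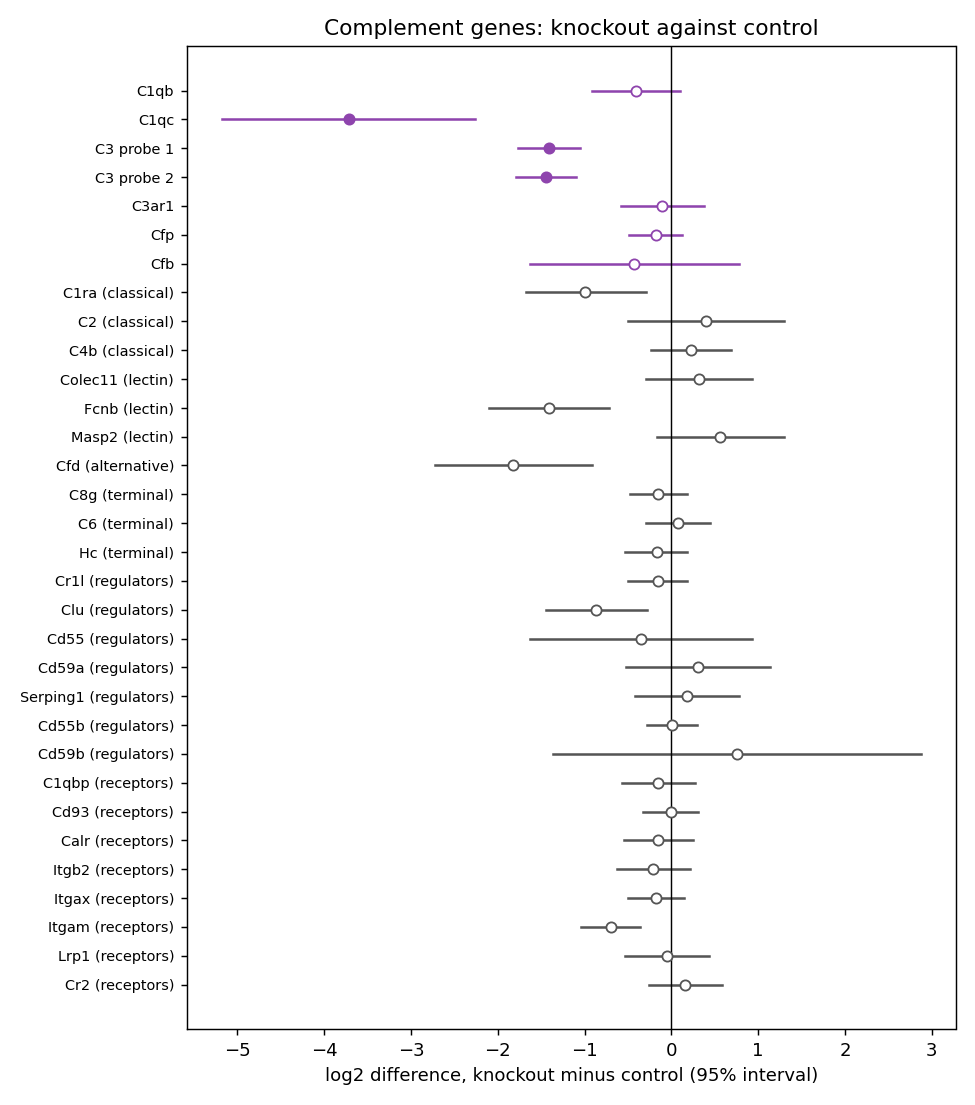
Difference in log2 level, knockout minus control, with its 95% interval from limma for the 7 tested member probes and pathway genes, with filled points at an adjusted p below 0.05. The filled points are C1qc and the C3 probes, and all pathway genes drawn are open.

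Maf, which encodes the transcription factor c-Maf, was read beside the C1q genes, at which Maf factors are known to act in macrophages. It read -3.41, -2.89 and -3.80 against -1.18, -1.82, -1.49 and -1.84. Its level fell 3.44-fold without overlap (difference -1.78, SE 0.26, limma adjusted p = 0.0177), a call lost without knockout replicate 1 or 3 or control replicate 3 (differences -1.76, -1.57 and -1.75, limma adjusted p = 0.0899, 0.0821 and 0.0561). Whether this factor sets the level of a complement gene was not tested.

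Markers of some other cell types also differed between the groups, in both directions. Of 14 monocyte and macrophage markers 9 were tested; 5 fell, none rose, and the median difference was -1.04. Cd14, a receptor for bacterial lipopolysaccharide, read -0.03, 0.14 and 0.05 in the knockout group and 1.67, 1.57, 1.65 and 1.75 in the controls, a 3.05-fold fall (limma adjusted p = 0.000761). Lyz2, a lysozyme gene, fell 2.52-fold (limma adjusted p = 0.0192) and Adgre1, a surface receptor of macrophages, 1.84-fold (limma adjusted p = 0.0451), and Maf is also on the list. Csf1r, the receptor for the macrophage growth factor, differed by -0.30 (limma adjusted p = 0.586). The summed signal of the list, in units of the 75th percentile, was 54.8 to 66.2 in the knockout group and 81.1 to 96.5 in the controls, and Cd163 never stood well above background.

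Of 9 neutrophil markers 1 passed after adjustment, lower, and all 9 differences were below 0 (median -2.21). These markers summed to 39.2 to 56.2 in the knockout group and 70.9 to 76.2 in the controls. Knockout replicate 1 stood apart from the other arrays labelled knockout on several of them: S100a9 read 1.95 there against -0.64 and -1.18, with controls from 1.67 to 2.51. Camp read 0.62 against -3.80 and -4.42, and S100a8 -0.18 against -3.17 and -3.34. Mast cell and basophil markers (6 of 8 fell, median -3.30) summed to 7.53 to 10.5 and 18.2 to 29.8. Among those that fell, Ms4a2 was well above background on every control and no knockout array, so it entered the test through the controls. Its difference was -3.86, or -0.80 with the common floor. Over all lists 12 markers were called lower, and 10 with the common floor. T cell markers summed to 5.51 to 5.81 in the knockout group against 1.96 to 2.18. Of 6 tested, 2 rose: Lck by 1.62 and Tcf7 by 1.92 (limma adjusted p = 0.000766 and 0.00601). Gata3 differed by 2.88 and did not pass (limma adjusted p = 0.0892). It was well above background on every knockout array and no control, so it entered the test through the knockout group. With the common floor the Gata3 difference was 1.49. The chains Cd3e, Cd3d and Cd3g differed by -0.05, 0.01 and 0.72 and did not pass (limma adjusted p = 0.930, 0.994 and 0.744). Cd247 never stood well above background. Stromal markers, which would show feeder or connective tissue cells, did not pass in any of 6 tested genes, summed to 38.3 to 47.0 and 39.8 to 60.4, and no array had Col1a1, Cxcl12, Dcn or Lum well above background. B cell and erythroid markers did not pass in any of 4 and 2 tested genes. Their sums were 13.2 to 16.5 against 13.1 to 17.6 and 0.114 to 0.146 against 0.102 to 0.153, and Alas2 never stood well above background. A sum follows the brightest genes of its list. The stromal sum was mostly Vim (mean level 5.44, with Pdgfrb next at 0.67). That of the B cell list was mostly Cd79b (3.87, with Cd79a next at -5.49). These sums therefore say little about the other genes of those lists. The brightest genes of the monocyte and macrophage, neutrophil, and mast cell and basophil lists were Csf1r (5.40), Mpo (5.19) and Kit (3.03). Their own differences did not pass (limma adjusted p = 0.586, 0.242 and 0.739). At an unadjusted p below 0.05 in limma, 8 monocyte and macrophage markers were lower and 0 higher, and 9 and 0 of the neutrophil list. The counts were 6 and 0 for mast cells and basophils, 0 and 3 for T cells, and 0 and 2 for the stromal list. The B cell and erythroid lists had 0 and 0 each. No share of all probes was counted at this threshold. The part of other cell types in the levels of C3 and C1qc was not tested. In bulk RNA fewer cells of a type and less RNA per cell cannot be told apart.

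**Figure D4:**
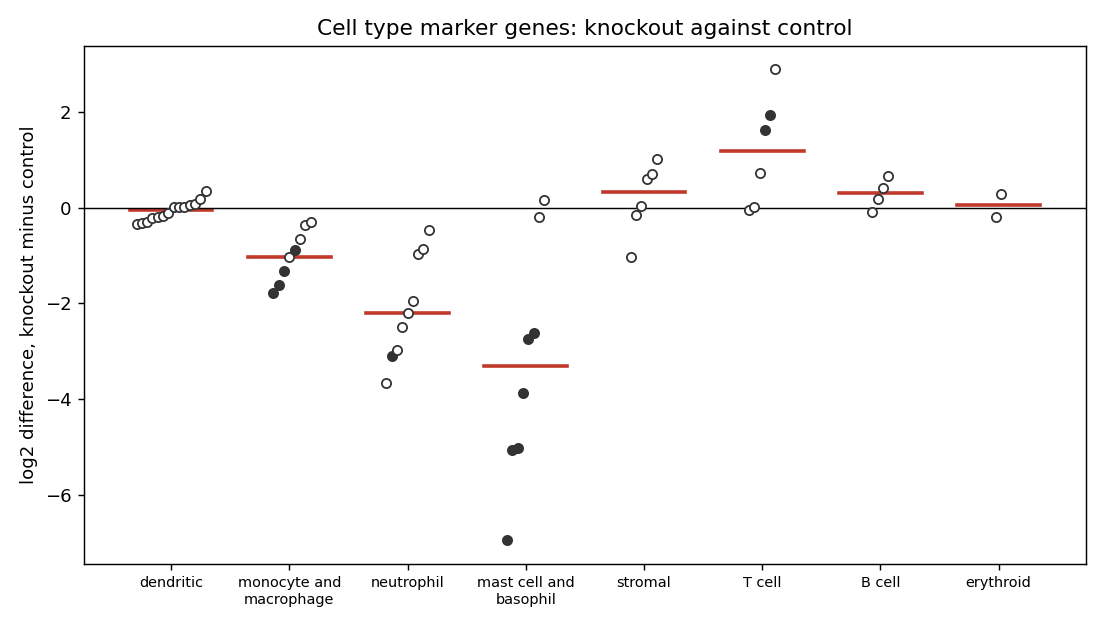
Difference in log2 level, knockout minus control, of marker genes by cell type, with filled points at an adjusted p below 0.05 and a red line at the median of each list's tested genes. Dendritic markers sit close to 0 (median -0.05). The medians of the monocyte and macrophage, neutrophil, and mast cell and basophil lists lie below 0, at -1.04, -2.21 and -3.30. That of the T cell list lies above it, at 1.17. Among mast cell and basophil markers, Tpsb2 (0.15) and Kit (-0.20) did not pass.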

How the data were processed

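Each array's deposited file gives the intensity of every spot, from Agilent's Feature Extraction software (10.7.3.1, per the file headers): a background-subtracted processed signal, a median signal and a local background. Flags of 0 or 1 per spot in the same deposited files mark measured and outlier spots. The deposited series table holds log2 values, centred by probe on the median of the 7 arrays, with no stated scale; its differences between arrays followed the scanner values with a slope of 1, and its column medians were 0, or -0.02 for knockout replicate 3.

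For the main values, control and outlier spots were removed, the 75th percentile of log2 processed signal (non-control spots) was subtracted on each array, and spots of a probe were averaged. A probe counts as well above background where most of its spots are flagged so. RefSeq accessions, without versions, named 26413 of 55681 probes (47.4%); each listed gene was read at its tested probe of highest mean. A further 23 probes lacked values on enough arrays. Groups were tested with limma 3.58.1 (lmFit, eBayes; R 4.3.3) over 34099 probes (5 residual and 2.73 prior degrees of freedom), with Benjamini-Hochberg adjustment and a threshold of 0.05. The script was tested on simulated data. Precision is limited by the number of arrays, all of 1 slide and 1 scan date, and no pair was identical.

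The members, lists and tests were chosen with earlier results of these data known. All member probes are reported; pathway genes were to be named if past the threshold, else the 2 of highest mean per role. For normexp (offset 50) the mean signal had been planned, but the median signal was used, since the files as used here hold no mean signal column. The alternatives were background correction, normalization, the series table, filters, floors, outlier spots, variance model, array weights, 1 probe per gene, leaving out each array in turn, and the replicate number as a block. Some listed genes are counted in their lists but not reported here by name.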

Additional observations from a re-analysis of the deposited data

How the results depend on the processing

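Both C3 calls were kept under every alternative in which the probe was tested except the replicate block. The C1qc call was lost as the report gives, and its probe was not tested with the stricter filters. The replicate number was used as a block although same-numbered arrays did not deviate together (correlations of -0.06, -0.08 and -0.02), so they share only a number; with it 0 member probes were lower, with differences about as large (C1qc -3.95, adjusted p of 0.192; C3 -1.45 and -1.48, 0.116 and 0.0968; Maf -1.87, 0.147), and over all probes 71 were lower and 81 higher, while markers lower and higher numbered 5 and 1. Over all probes 300 were lower with normexp correction, 9270 lower and 847 higher without a filter, 390 lower with each array's own floor, 386 lower and 539 higher with array weights, and 186 higher where at least 2 arrays of each group had to be above background. Leaving out 1 array gave 95 to 162 lower and 84 to 248 higher probes, 2 to 3 lower members, 0 to 1 lower pathway genes, and 7 to 14 lower and 2 to 3 higher markers. The counts fell by over 1.5 times without knockout replicate 1 (106 higher), 2 (168 higher) or 3 (84 higher, 95 lower). Pathway genes lower numbered 3 with normexp correction or 1 probe per gene, 10 without a filter, 2 with array weights, and 1 with each array's own floor or a variance trend; markers lower numbered 21 without a filter. Without a filter the median difference of all probes was -0.14, against -0.03. Signs turned for C3ar1 without control replicate 1 (0.00, in a range from -0.25 to 0.00 over the arrays left out), Cfb without control replicate 3 (0.03, range -0.75 to 0.03) and Cfp with quantile normalization (0.02), none of which passed. The cause of these shifts was not tested. Signal over background limits what can be read of C1qa, C5ar1 and the knockout level of C1qc.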
